A study of Mus musculus with 15 samples.

Results

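NK cell receptor genes are described here in invariant NKT (iNKT) cells taken from 4 tissues of the mouse. The 10 genes were chosen by name as a list of receptor genes known from NK cells: Klrb1c, Klrd1, Klrk1, Klrc1, Klrc2, Klre1, Klrg1, Styk1, Ncr1 and Klra1. The choice was made with earlier results of these data known. They are 10 of 48795 genes listed in each sample, and 9 of them, all but Ncr1, passed the filter on low counts that left 13600 genes for testing. The study compared iNKT cells between thymus, spleen, mesenteric lymph nodes (mLN) and inguinal lymph nodes (iLN) by RNAseq. All mice were wild type C57BL/6 aged 6 weeks, and no treatment is named. The 15 samples were 4 of thymus, 4 of spleen, 4 of mLN and 3 of iLN (replicates 2, 3 and 4), called biological replicates by the submitters. Their labels number them WT1 to WT4 across the tissues and do not say whether a number marks 1 mouse or a pool. Cells were sorted as TCRβ+ and CD1d-tetramer+ after leaving out B220+, CD11b+, CD11c+ and CD8+ cells, with no NK receptor among the sort markers. The lymph nodes were digested with enzymes and thymus and spleen were not, so that preparation and tissue cannot be told apart between these 2 kinds of organ.

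Most killer cell lectin-like receptors are encoded close together in the natural killer gene complex, and Klrg1 lies apart from them on the same chromosome. Inhibitory receptors among them, such as the Ly49 receptor of Klra1 and the CD94/NKG2A pair of Klrd1 and Klrc1, recognize MHC class I molecules and dampen activation, while activating receptors such as NKG2D (Klrk1) and NK1.1 (Klrb1c) signal through small adaptor proteins with charged membrane segments. In C57BL/6 mice the NKT1 subset of iNKT cells acquires NK1.1 and other NK receptors late in maturation, and NK1.1 has long been used to mark these cells.

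Total expected counts per sample were between 1152702 (thymus replicate 2) and 8670570 (spleen replicate 1), and the next lowest was 4080550 (iLN replicate 3). Levels are given as TPM, which corrects for gene length and for the total of a sample, or in expected counts, the estimated fragments of a gene. The label of the cells was checked with 12 iNKT cell markers, whose summed level was 7042 to 13250 TPM, with Trac as the most abundant gene. Trav11, the Vα14 segment of the invariant receptor, was at 1147 to 2612 TPM, and Zbtb16, which encodes the factor PLZF, at 23.6 to 70.4 TPM. Both were thus detected in all 15 samples, while Trav11d, a copy of Trav11, was at 0 in most. Of the 11 iNKT markers tested, edgeR called 1 between any tissues, Thy1, higher in iLN than in thymus, and DESeq2 called 1 to 3 in each of the 6 pairs. The 2 CD8 genes, products of cells left out by the sort, together were at 0.98 to 19.25 TPM.

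Of the 9 tested NK receptor genes, 8 had their highest mean TPM in thymic iNKT cells, and Klrg1 had it in those of the spleen. Against spleen, 5 of the 9 tested genes were higher in thymus (Styk1, Klra1, Klre1, Klrd1 and Klrk1) and 0 were lower, where 0.779% of all 13600 genes were called higher in thymus. A gene was called at an adjusted p under 0.01 and a fold change over 1.5 in edgeR's quasi-likelihood test. In mLN, 4 genes were lower than in spleen (Klrb1c, Klrk1, Klrc1 and Klrc2), beside 0.199% of all genes. In iLN, 3 genes were lower than in spleen (Klrb1c, Klrd1 and Klrc2), beside 0.588% of all genes.

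Against thymus, 8 of 9 genes were lower in mLN, all but Klrg1, beside 0.779% of all genes, and 7 were lower in iLN, all but Klrc1 and Klrg1, beside 0.625%. Between the lymph nodes a single gene, Klrk1, was called and was higher in iLN, beside 0.316% of all genes. In the test over 4 tissues, 8 of 9 genes were called, all but Klrg1, beside 3.38% of all genes. The median log2 fold change of the 9 genes was 1.44 in thymus vs spleen, -1.50 in mLN vs spleen, -1.98 in iLN vs spleen, -3.15 in mLN vs thymus, -3.03 in iLN vs thymus and -0.08 in iLN vs mLN. The median of all genes tested was between -0.01 and 0.03. These comparisons share samples, and Ncr1 is not in them. The filter on low counts also keeps a gene that is high in 1 tissue alone, such as Styk1, so that counts and medians over the genes that passed are a description. In bulk samples, fewer cells that carry a receptor and less of its RNA per cell cannot be told apart.

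Some of these counts moved when a library was left out. In thymus vs spleen 3 genes were called without thymus replicate 4. In mLN vs spleen 1 gene was called without spleen replicate 3 or 4 or without mLN replicate 2 or 4, and 2 genes were called without spleen replicate 1 or mLN replicate 3. In iLN vs spleen 1 gene was called without spleen replicate 3, and edgeR called 0 without spleen replicate 4 or without iLN replicate 3 or 4. With all libraries 7 of the 9 genes had an unadjusted p under 0.05 in iLN vs spleen, beside 2225 of all 13600. DESeq2 called 6 there, beside 588 of all genes. Of the 28 differences called in the 6 pairs, 18 were also called without each library in turn.

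**Figure D1:**
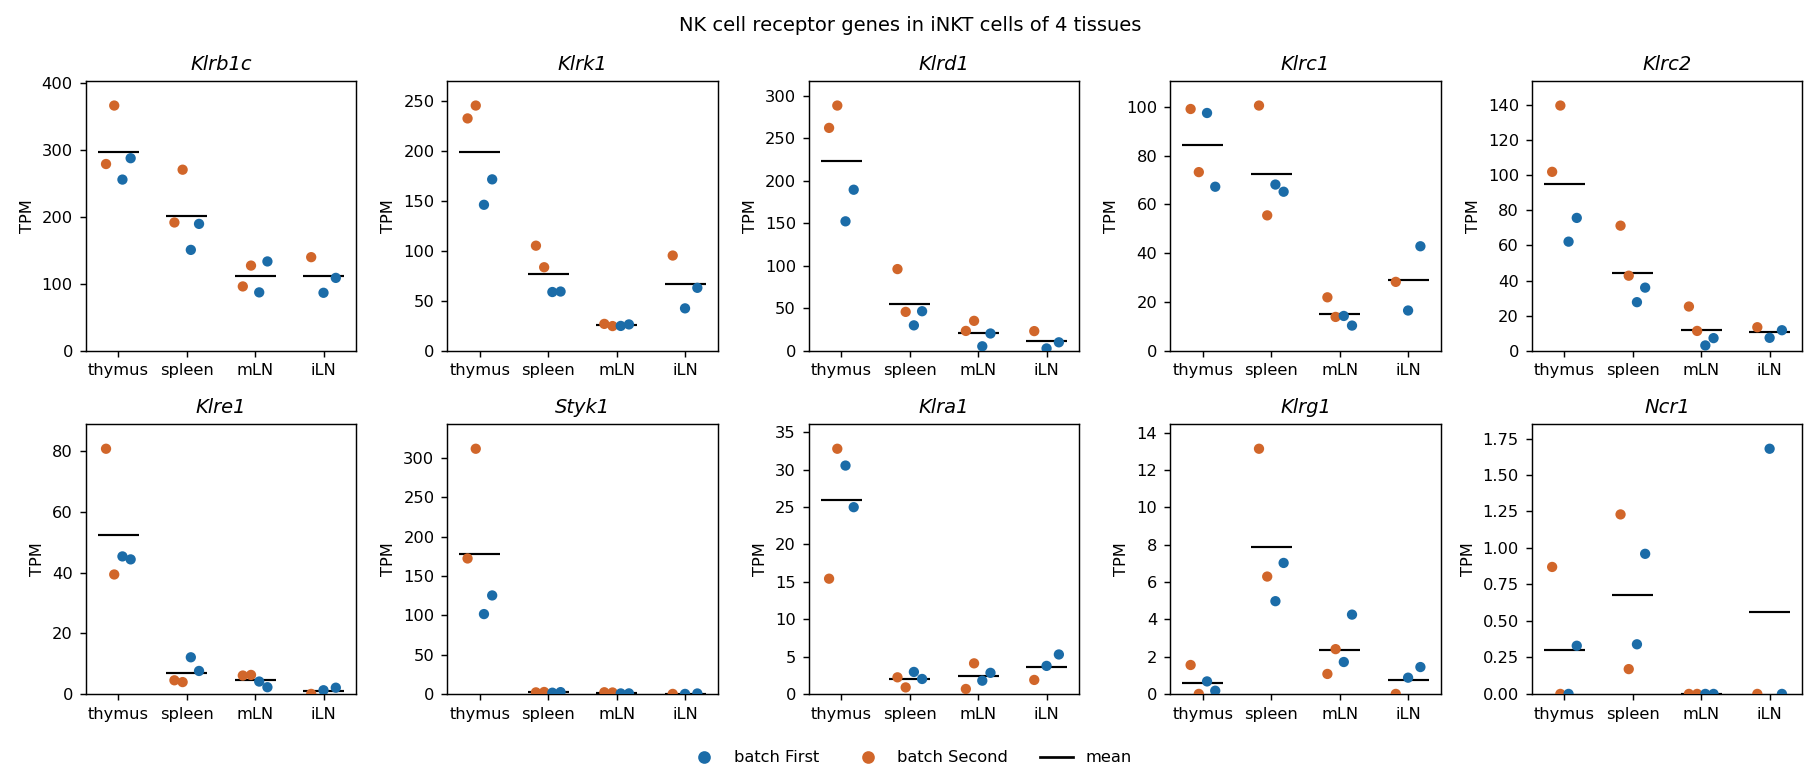
TPM of the 10 NK receptor genes in each of 15 samples (points, coloured by batch) with the mean of each tissue (bar); each panel has its own axis from 0. Styk1, Klre1 and Klra1 are at 15.4 TPM or more in every thymus sample and at 12.1 TPM or less elsewhere, and Klrg1 is highest in spleen.

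Klrb1c, which encodes NK1.1, was the most abundant of the 10 genes in every sample. Its TPM values were 279, 367, 256 and 288 in thymus, 192, 271, 151 and 190 in spleen, 96.2, 127, 87.3 and 134 in mLN, and 140, 86.7 and 109 in iLN. Thymus was highest and overlapped with spleen only through spleen replicate 2, every spleen sample was above every lymph node sample, and the lymph nodes overlapped with each other. In thymus vs spleen the log2 fold change was 0.62 (SE 0.15, adjusted p = 0.0345), which edgeR did not call and DESeq2 did (0.63, adjusted p = 0.00569). It was -0.86 (SE 0.16, adjusted p = 0.0066) in mLN vs spleen and -0.94 (SE 0.17, adjusted p = 0.00305) in iLN vs spleen. Within batch First these were -0.97 and -1.12, and within batch Second -0.77 and -0.71. The call in mLN vs spleen was lost without any 1 of 9 libraries (thymus replicates 3 and 4, spleen replicates 2, 3 and 4, or any mLN replicate), with adjusted p between 0.0116 and 0.0375, and without the batch term (adjusted p = 0.0215). The call in iLN vs spleen was lost without spleen replicate 2, 3 or 4 or iLN replicate 3 or 4, with adjusted p between 0.0101 and 0.0175. Against thymus, the log2 fold changes were -1.48 in mLN and -1.56 in iLN (adjusted p = 1.23e-05 and 3.21e-05), with -1.62 and -1.77 in batch First and -1.33 and -1.27 in batch Second. Of the distinct stretches of read length in Klrb1c transcripts, 10.7% also occur in transcripts of other genes, mostly Gm44511 (10.5%). The expected counts of Klrb1c were not whole in 6 samples. Against spleen, Gm44511 had log2 fold changes of 4.37 in thymus, 6.58 in mLN and 3.90 in iLN, none called. How shared fragments divide between these genes is uncertain, and their sum was not tested.

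Klrk1 encodes NKG2D, the activating receptor for stress-induced ligands. It was at 233, 246, 146 and 172 TPM in thymus, 105, 83.7, 58.8 and 59.3 in spleen, 26.9, 24.7, 24.9 and 26.4 in mLN, and 95.4, 42.5 and 63.0 in iLN. The thymus samples were above all others and the mLN samples below all others, while spleen and iLN overlapped. Of the 9 genes it was the 1 called between the lymph nodes, with a log2 fold change of 1.52 (SE 0.20, adjusted p = 0.000328) in iLN vs mLN, 1.19 within batch First and 1.97 within batch Second. It was 1.44 (SE 0.19, adjusted p = 0.00012) in thymus vs spleen, -1.71 (SE 0.19, adjusted p = 0.000102) in mLN vs spleen and -3.15 (SE 0.20, adjusted p = 2.45e-08) in mLN vs thymus. In iLN vs thymus it was -1.62 (SE 0.21, adjusted p = 0.000125), with -1.84 in batch First and -1.29 in batch Second. Within the batches, the thymus and mLN differences from spleen were 1.41 and -1.62 in batch First and 1.44 and -1.83 in batch Second. In iLN vs spleen the log2 fold change was -0.18 (95% interval -0.60 to 0.24), with -0.42 in batch First and 0.14 in batch Second. No call of Klrk1 was lost when 1 library was left out.

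**Figure D2:**
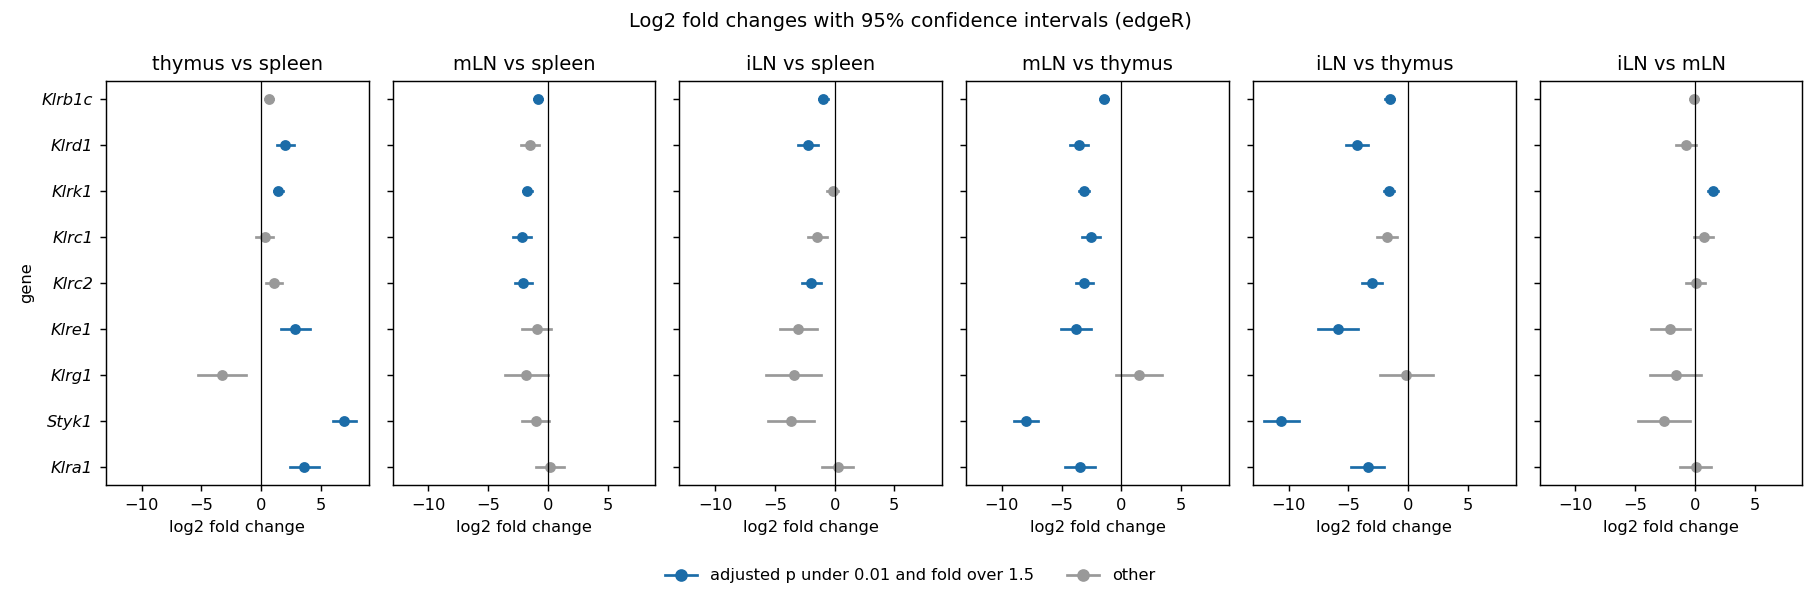
Log2 fold change of the 9 tested genes in the 6 pairs of tissues (points) with 95% confidence intervals (lines) from edgeR; blue marks an adjusted p under 0.01 with a fold change over 1.5. Klrk1 is the single blue gene in iLN vs mLN, and Klrg1 is grey in all panels.

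CD94, encoded by Klrd1, pairs with NKG2A (Klrc1) to an inhibitory and with NKG2C (Klrc2) to an activating receptor, and both pairs recognize Qa-1. Klrd1 was at 262, 289, 152 and 190 TPM in thymus, 96.1, 45.7, 29.9 and 46.5 in spleen, 23.3, 35.1, 5.20 and 20.3 in mLN, and 23.1, 2.66 and 9.89 in iLN. All thymus samples were above the spleen samples, all iLN samples were below them, and mLN overlapped with spleen through mLN replicate 2. Klrd1 had a log2 fold change of 2.03 (SE 0.34, adjusted p = 0.00153) in thymus vs spleen, 2.03 and 1.99 within batches First and Second. It was -2.24 (SE 0.41, adjusted p = 0.003) in iLN vs spleen, -2.69 and -1.71 within the batches, and -1.50 (SE 0.35, adjusted p = 0.0339) in mLN vs spleen, which DESeq2 called (adjusted p = 0.000961). The call in thymus vs spleen was lost without thymus replicate 4 (1.92, adjusted p = 0.0103), and that in iLN vs spleen without spleen replicate 4, iLN replicate 3 or iLN replicate 4 (adjusted p between 0.0119 and 0.0129) and without the batch term (-2.27, adjusted p = 0.0107). Against thymus it was -3.53 in mLN and -4.27 in iLN (adjusted p = 9.25e-06 and 1.1e-05), with -3.87 and -4.72 in batch First and -3.21 and -3.70 in batch Second.

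Of the 8 genes called over 4 tissues, Klrc1 had the smallest estimated difference between thymus and spleen. It was at 99.1, 73.2, 97.5 and 67.2 TPM in thymus, 100.5, 55.5, 68.1 and 65.2 in spleen, 21.9, 13.8, 14.2 and 10.3 in mLN, and 28.2, 16.5 and 42.8 in iLN. Thymus and spleen overlapped, and every lymph node sample was below both. Klrc1 had a log2 fold change of 0.31 (95% interval -0.40 to 1.01) in thymus vs spleen and -2.21 (SE 0.36, adjusted p = 0.00342) in mLN vs spleen, with -3.09 in batch First and -1.46 in batch Second. In iLN it was -1.47 against spleen (adjusted p = 0.0338) and -1.78 against thymus (adjusted p = 0.0128), neither of them called by edgeR. DESeq2 called both (adjusted p = 0.00404 and 0.000238), and so did edgeR without a filter (0.00239 and 0.000108) and without mLN replicate 1 (0.0079 and 0.002). The difference from thymus was also called in batch First alone (-2.05, adjusted p = 0.00854). The call in mLN vs spleen was lost without spleen replicate 1, 3 or 4 or mLN replicate 2, 3 or 4 (adjusted p between 0.0102 and 0.0258). In mLN vs thymus the log2 fold change was -2.51 (SE 0.36, adjusted p = 0.000298), -3.27 and -1.91 within batches First and Second.

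Klrc2 was at 102, 140, 62.2 and 75.7 TPM in thymus, 71.3, 42.8, 27.7 and 35.97 in spleen, 25.2, 11.3, 3.01 and 7.18 in mLN, and 13.4, 7.35 and 11.7 in iLN. Thymus and spleen overlapped through spleen replicate 1, and the lymph node samples were all below the spleen samples. For Klrc2 the log2 fold change was 1.05 (SE 0.32, adjusted p = 0.117) in thymus vs spleen, -2.05 (SE 0.34, adjusted p = 0.0042) in mLN vs spleen and -1.98 (SE 0.38, adjusted p = 0.00502) in iLN vs spleen. The last 2 were -2.92 and -2.09 in batch First and -1.44 and -1.97 in batch Second. They were lost without spleen replicate 1, 3 or 4, the first also without mLN replicate 2 or 4 (adjusted p up to 0.0192), the second also without any iLN replicate (adjusted p up to 0.0377), and both without the batch term (adjusted p = 0.0254 and 0.0156). The thymus vs spleen difference was called when no filter was used (adjusted p = 0.00108). Against thymus Klrc2 was at -3.10 in mLN and -3.03 in iLN (adjusted p = 2.26e-05 and 0.000145), with -3.99 and -3.16 in batch First and -2.43 and -2.96 in batch Second. Klrc1 and Klrc2 share fragments, since 14.3% of the distinct stretches of read length in Klrc1 transcripts also occur in Klrc2, and at the 2 decimals of the files their expected counts were not whole in 14 of 15 samples. How the counts divide between them is uncertain. When the counts of Klrc1, Klrc2 and Klrc3 were summed, an alternative chosen after the data were seen, the log2 fold change was -2.12 (SE 0.31, adjusted p = 0.00148) in mLN vs spleen, -1.79 (SE 0.34, adjusted p = 0.00445) in iLN vs spleen and 0.84 (SE 0.30, adjusted p = 0.211) in thymus vs spleen.

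Klre1 encodes a receptor chain that pairs with Klri1 or Klri2. It was at 80.9, 39.4, 45.4 and 44.4 TPM in thymus, 4.49, 3.90, 12.1 and 7.57 in spleen, 6.06, 6.26, 4.08 and 2.21 in mLN, and 0, 1.21 and 2.05 in iLN. The thymus samples stood apart from all others, mLN overlapped with spleen, and the iLN samples were below all spleen and mLN samples. Its expected counts were 40 to 570 in thymus and 0 to 9 in iLN, where a count of 0 in replicate 2 allows up to 0.571 CPM (counting error only). Klre1 had a log2 fold change of 2.86 (SE 0.59, adjusted p = 0.00899) in thymus vs spleen, with 2.11 in batch First and 3.74 in batch Second. This call was lost without any thymus replicate, without spleen replicate 1, 2 or 4, or without mLN replicate 3 (adjusted p between 0.0125 and 0.0561). It was also lost without the batch term (2.74, adjusted p = 0.0174) and with replicate numbers blocked in place of batch (2.83, adjusted p = 0.0118). In mLN vs thymus the log2 fold change was -3.81 (SE 0.61, adjusted p = 0.000892), with -4.42 in batch First and -3.50 in batch Second, and this call was lost without thymus replicate 1 (-3.33, adjusted p = 0.0127). In iLN vs thymus it was -5.89 (SE 0.81, adjusted p = 0.000224), with -5.08 in batch First, and in batch Second the single iLN sample was at 0. Against spleen, Klre1 in iLN was at -3.03 (SE 0.75, adjusted p = 0.0253), which edgeR did not call. DESeq2 called this difference (adjusted p = 0.000532), and so did edgeR without a filter (6.02e-05).

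Styk1, which encodes a receptor-like kinase, had the largest estimated differences of the 9 genes between thymus and the other tissues. It was at 172, 312, 102 and 125 TPM in thymus, 1.96, 2.44, 1.52 and 2.29 in spleen, 2.11, 1.82, 0.60 and 0.68 in mLN, and 0, 0 and 0.56 in iLN. Every thymus sample was far above every other sample, and spleen and mLN overlapped. The expected counts were 238 to 1127 in thymus and 1 to 11 in spleen and mLN, and iLN held a single count in 3 samples. Styk1 had a log2 fold change of 6.97 (SE 0.45, adjusted p = 3.03e-08) in thymus vs spleen and -8.01 (SE 0.48, adjusted p = 1.77e-08) in mLN vs thymus. Within batch First these were 6.12 and -8.55, and within batch Second 7.85 and -7.80. For iLN the fitted value rests on that count. The ratio of counts per library size after TMM scaling, thymus (2470 counts) over iLN (1 count), was 2032. Its exact 95% interval was 364 to 80310, which covers counting error only. In iLN vs spleen edgeR did not call Styk1 (adjusted p = 0.0311), and without a filter it did (0.0027).

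Klra1 encodes Ly49A, an inhibitory receptor for MHC class I. It was at 15.4, 32.8, 30.6 and 25.0 TPM in thymus, 2.22, 0.87, 2.94 and 2.0 in spleen, 0.66, 4.09, 1.77 and 2.82 in mLN, and 1.87, 3.75 and 5.28 in iLN. The thymus samples were above all others, and the other 3 tissues overlapped. Klra1 had a log2 fold change of 3.62 (SE 0.58, adjusted p = 0.00105) in thymus vs spleen, 3.32 and 3.95 within batches First and Second, and -3.46 (SE 0.58, adjusted p = 0.0014) in mLN vs thymus, -3.84 and -3.16 within them. It was -3.38 (SE 0.65, adjusted p = 0.00521) in iLN vs thymus, -3.28 and -3.58 within them, a call that was lost without thymus replicate 2, 3 or 4 or any iLN replicate (adjusted p between 0.0118 and 0.0311) and without the batch term (-3.26, adjusted p = 0.0131).

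Klrg1, an inhibitory receptor for cadherins known from effector T cells and mature NK cells, had its highest levels in spleen. It was at 1.55, 0, 0.67 and 0.17 TPM in thymus, 13.1, 6.29, 4.97 and 7.02 in spleen, 1.07, 2.40, 1.71 and 4.25 in mLN, and 0, 0.87 and 1.44 in iLN. All spleen samples were above all other samples, and thymus, mLN and iLN overlapped. With 28 to 103 expected counts in spleen and 0 to 12 in thymus, the log2 fold change of -3.30 (SE 0.95, adjusted p = 0.0817) in thymus vs spleen was not called, nor were -1.82 in mLN vs spleen and -3.44 in iLN vs spleen (adjusted p = 0.409 and 0.095), and over 4 tissues its adjusted p was 0.0512. DESeq2 gave adjusted p = 0.00493 in thymus vs spleen and 0.00549 in iLN vs spleen, and called Klrg1 in both. The paper, which used DESeq2, names Klrg1 among genes whose expression in thymus and lymph node iNKT cells differed from spleen. Ncr1, which encodes NKp46, had 0 to 10 expected counts per sample (at most 1.68 TPM), and 0 in all 4 mLN samples. The filter on low counts left it out of the edgeR fit.

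The order of the genes by mean TPM differed between the tissues. In thymus it was Klrb1c (298), Klrd1 (223), Klrk1 (199), Styk1 (178), Klrc2 (94.9), Klrc1 (84.2), Klre1 (52.5) and Klra1 (26.0), with Klrg1 and Ncr1 under 1 TPM. In spleen Klrb1c (201) was followed by Klrk1 (76.8), Klrc1 (72.3), Klrd1 (54.5) and Klrc2 (44.4), and Styk1 and Klra1 had mean levels of 2.05 and 2.01 TPM. In thymus each of the first 4 overlapped in range with its neighbour, as did Klrk1, Klrc1, Klrd1 and Klrc2 in spleen. In mLN the order after Klrb1c (111) was Klrk1 (25.7), Klrd1 (21.0), Klrc1 (15.1) and Klrc2 (11.7), and in iLN, where Klrb1c was at 112, it was Klrk1 (67.0), Klrc1 (29.2), Klrd1 (11.9) and Klrc2 (10.8). In both lymph nodes each of these genes after Klrb1c also overlapped in range with its neighbour. The summed TPM of the 10 genes was 892 to 1498 in thymus, 357 to 588 in spleen, 143 to 227 in mLN and 163 to 302 in iLN. Klrb1c made up 22.4% to 29.2% of this sum in thymus and 44.3% to 64.3% in the lymph nodes.

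The 8 Klr genes and Styk1 lie on chromosome 6 (GRCm38), from Klrg1 (chr6:122270596-122282882, minus strand) to Styk1 (chr6:131299142-131353597, minus strand), and Ncr1 is on chromosome 7 (chr7:4337724-4345164, plus strand). Klre1, Klrd1, Klrk1, Klrc2 and Klrc1 lie in this order between positions 129577905 and 129678973. In the span from Klrg1 to Styk1, 368 genes are annotated in these files and 104 were tested, the 9 receptor genes among them. Of the 104, 11 were higher and 1 lower in thymus vs spleen, beside 0.779% and 0.537% of all genes, 4 were lower in mLN vs spleen, 5 were lower in iLN vs spleen, 16 were lower and 1 higher in mLN vs thymus, and 14 were lower in iLN vs thymus. Of all genes, 0.199% were lower in mLN and 0.588% in iLN against spleen. Against thymus, 0.779% were lower and 0.816% higher in mLN, and 0.625% were lower in iLN. The receptor genes are 5 of the 11 higher in thymus than in spleen, the 4 lower in mLN and 3 of the 5 lower in iLN than in spleen, 8 of the 16 and 7 of the 14. The median log2 fold change of the 104 genes was 0.13 in thymus vs spleen, beside -0.01 for all genes. In the other pairs it was between -0.27 (iLN vs thymus) and 0.04 (iLN vs mLN), with genes at 0 in a tissue set to their bound. Among the others called in the span were Rhno1 (log2 fold change -2.78 in iLN vs spleen, adjusted p = 0.00187, lost without iLN replicate 2 with 0.0174), Slc2a3 (-1.37 in iLN vs spleen, adjusted p = 0.00234, lost without spleen replicate 4 with 0.0113) and Cracr2a (-1.84 in mLN vs thymus, adjusted p = 0.00238, lost without thymus replicate 1 or mLN replicate 4 with at most 0.0156).

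Of 29 other receptor genes of the complex, 28 were in the files and 16 were tested. In thymus vs spleen 5 were higher (Klra3, Klra5, Klra6, Klra9 and Klra13-ps) and 0 lower, in mLN vs thymus 6 were lower (these and Klri2) and in iLN vs thymus 5 were lower (these without Klra3). Of all genes, 0.779% were called higher in thymus than in spleen, and 0.779% in mLN and 0.625% in iLN lower than in thymus. In mLN vs spleen and in iLN vs spleen edgeR called 0, with an unadjusted p under 0.05 for 6 genes in each, and DESeq2 called 0 in each. In edgeR 1659 of all genes had an unadjusted p under 0.05 in mLN vs spleen and 2225 in iLN vs spleen. Klra10, at 0 outside thymus, and other Ly49 genes with few counts there passed the filter through thymus, so that their median of 3.07 in thymus vs spleen (-0.01 for all genes; the same with Klra10 at its bound) is a description of the genes that passed. Klra9, another Ly49 receptor gene, was at 298, 257, 190 and 232 TPM in thymus, 2.56, 20.5, 4.69 and 3.48 in spleen, 7.46, 0.21, 5.33 and 0.56 in mLN, and 7.26, 1.87 and 4.92 in iLN. Every thymus sample was thus above every other sample, and the other tissues overlapped. For Klra9 the log2 fold change was 5.10 (SE 0.69, adjusted p = 0.000274) in thymus vs spleen and -6.27 (SE 0.74, adjusted p = 6.45e-05) in mLN vs thymus.

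Klra5 was at 25.7 to 69.7 TPM in thymus and at most 8.32 elsewhere, and Klra3 at 24.4 to 32.8 and at most 3.55. Their log2 fold changes in thymus vs spleen were 4.52 (SE 0.88, adjusted p = 0.00577) and 4.19 (SE 0.84, adjusted p = 0.007). Both calls were lost without any thymus replicate or without spleen replicate 2, 3 or 4 (adjusted p up to 0.0611 for Klra5 and 0.039 for Klra3), that of Klra3 also without spleen replicate 1. Those of Klra6 (lost without thymus replicate 1 or spleen replicate 1, up to 0.023) and of the pseudogene Klra13-ps (lost without any thymus replicate or spleen replicate 2, 3 or 4, up to 0.0439) were at 11.3 to 41.3 and 14.7 to 52.3 TPM in thymus and at most 0.81 and 5.57 elsewhere. Against thymus, the mLN call of Klra3 was lost without any thymus replicate, spleen replicate 3 or 4, or mLN replicate 1, 3 or 4 (up to 0.0419), and the iLN calls without iLN replicate 4 for Klra5 (0.0102), iLN replicate 2 for Klra9 (0.0113), thymus replicate 3 or iLN replicate 2 or 4 for Klri2 (up to 0.0191), and any thymus or iLN replicate or mLN replicate 4 for Klra6 (up to 0.0319). Klri2, the activating partner of Klre1, was at 9.54 to 16.8 TPM in thymus and at most 2.33 elsewhere, with a log2 fold change of 2.98 (adjusted p = 0.0146) in thymus vs spleen and -4.01 (adjusted p = 0.00199) in mLN vs thymus, lost without mLN replicate 3 or 4 (adjusted p up to 0.0123). Ly49 genes resemble each other, and 3.92% of the distinct stretches of read length in Klra9 transcripts and 1.699% of those of Klra3 also occur in other genes. For Klra1 and Klra5 this share was 0.

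**Figure D3:**
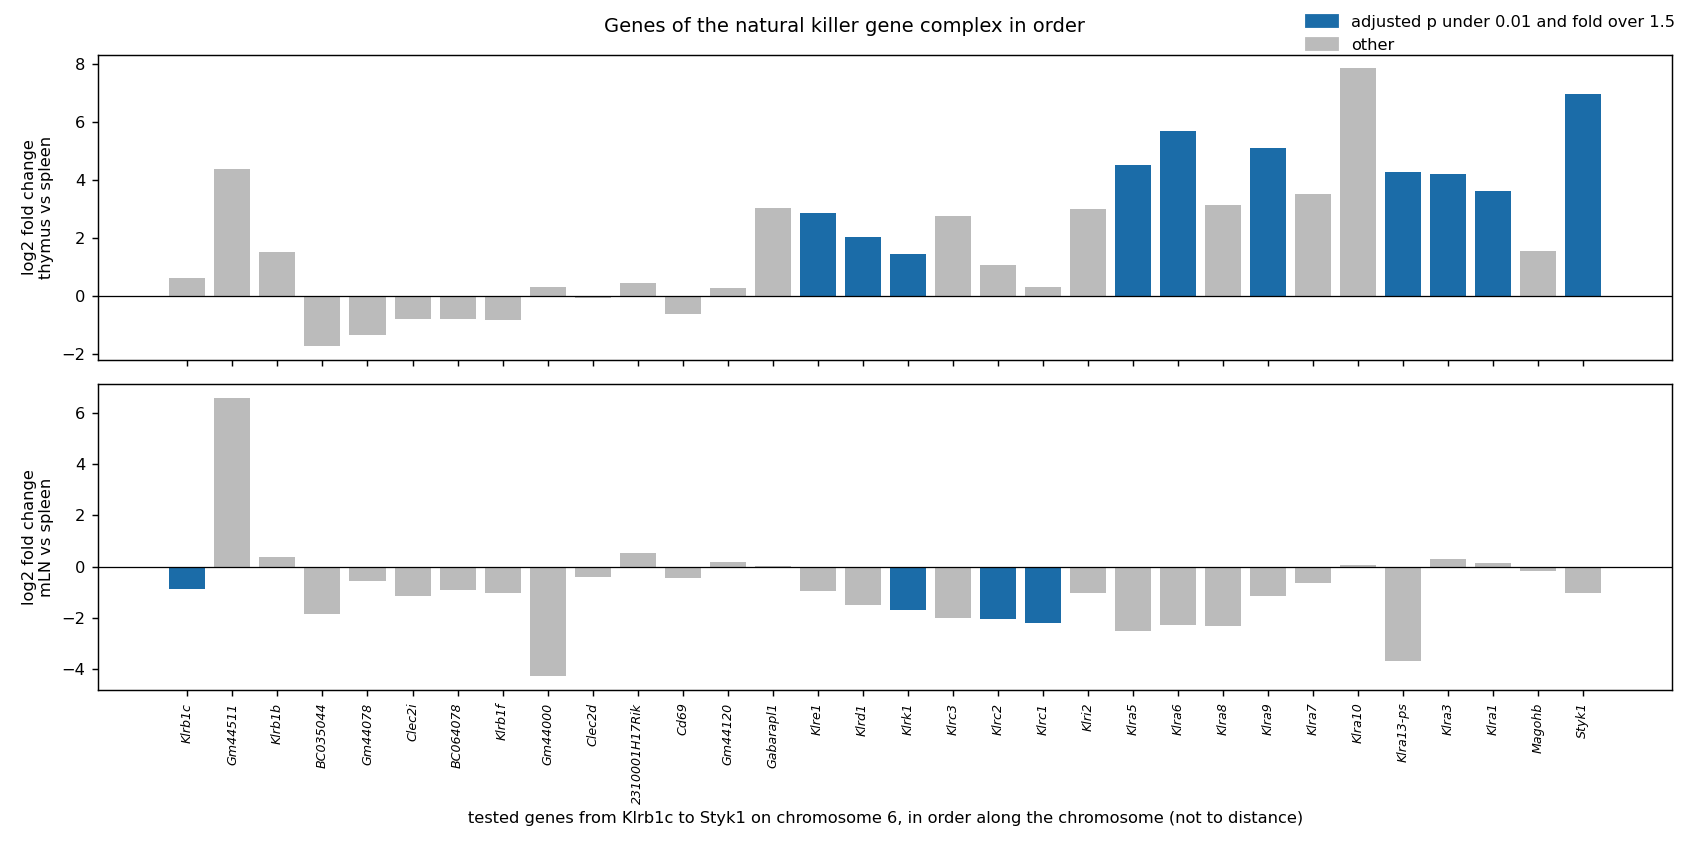
Log2 fold change of the 32 tested genes from Klrb1c to Styk1 in thymus vs spleen (upper) and mLN vs spleen (lower), in their order along chromosome 6; blue marks an adjusted p under 0.01 with a fold change over 1.5. In the upper panel all blue bars lie between Klre1 and Styk1 and point up, and in the lower panel they are Klrb1c, Klrk1, Klrc2 and Klrc1 and point down; Klra10 was at 0 in every spleen and mLN sample, so that its bar is no bound.

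The adaptors that these receptors signal through had different patterns. Hcst encodes DAP10, the partner of NKG2D, and was at 134, 190, 152 and 125 TPM in thymus, 113, 133, 223 and 247 in spleen, 123, 105, 183 and 225 in mLN, and 159, 62.4 and 132 in iLN. The 4 tissues overlapped, and the test over 4 tissues gave adjusted p = 0.637 (log2 fold change -0.28, SE 0.34, in thymus vs spleen). Tyrobp encodes DAP12, the partner of NKG2C and of activating Ly49 receptors, and was at 6.55 to 15.5 TPM in thymus, 3.39 to 11.4 in spleen, 1.29 to 4.92 in mLN and 0 to 5.89 in iLN, on 0 to 30 expected counts per sample (adjusted p = 0.352 over 4 tissues). Tyrobp was thus below Hcst in every sample on the TPM scale.

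Fcer1g encodes the FcRγ chain, an adaptor of NK1.1 and other receptors. It was at 157, 263, 97.2 and 111 TPM in thymus, 8.80, 19.2, 12.8 and 6.97 in spleen, 7.47, 10.3, 11.3 and 12.4 in mLN, and 10.3, 2.76 and 10.2 in iLN. The thymus samples were above all others and the other tissues overlapped. Fcer1g had a log2 fold change of 3.59 (SE 0.43, adjusted p = 3.69e-05) in thymus vs spleen, -3.90 (adjusted p = 1.95e-05) in mLN vs thymus and -4.31 (adjusted p = 5.29e-05) in iLN vs thymus. Ptpn6, the phosphatase SHP-1 that inhibitory receptors recruit, was at 127 to 188 TPM in thymus and 29.6 to 129 in spleen, with a log2 fold change of 1.75 (SE 0.22, adjusted p = 9.47e-05). Thymus and spleen overlapped in TPM through spleen replicate 2. Of 18 adaptor and signalling genes, 17 were tested, and edgeR called these 2 against thymus in each of spleen, mLN and iLN, that of Ptpn6 in iLN being lost without thymus replicate 4 (adjusted p = 0.0104). Of all genes, 0.779% were called higher in thymus than in spleen, and 0.779% in mLN and 0.625% in iLN lower than in thymus. The median log2 fold change of the 17 was -0.15 in thymus vs spleen, beside -0.01 for all genes.

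**Figure D4:**
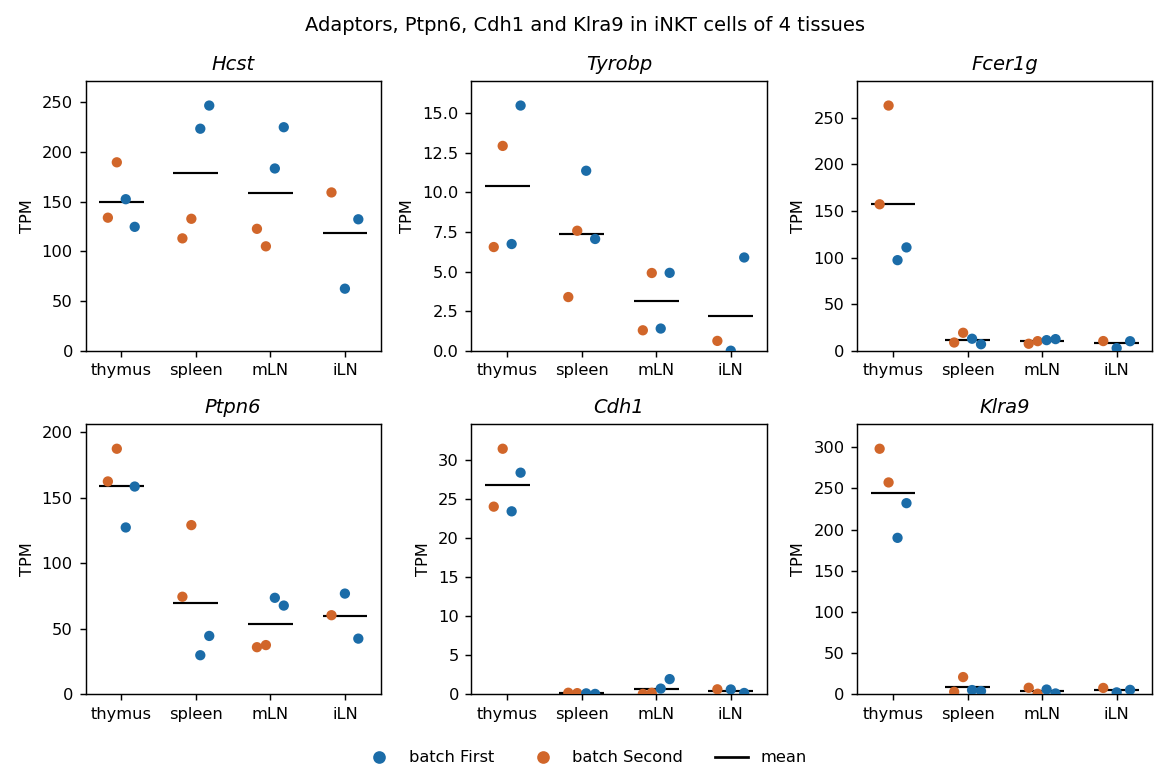
TPM of the adaptors Hcst, Tyrobp and Fcer1g, of Ptpn6, Cdh1 and Klra9 in each of 15 samples (points, coloured by batch) with the mean of each tissue (bar); each panel has its own axis from 0. Fcer1g, Cdh1 and Klra9 are high in the 4 thymus samples, while Hcst overlaps between all tissues.

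Ligands of the receptors were also read in the same cells. Of 16 ligand genes, 13 were in the files and 9 were tested, and edgeR called 1, Cdh1, which encodes E-cadherin, a ligand of KLRG1. Cdh1 was at 24.0, 31.5, 23.4 and 28.4 TPM in thymus and at most 0.15 in spleen, 1.90 in mLN and 0.59 in iLN. The thymus samples stood apart from all others. The log2 fold change of Cdh1 was 8.43 (SE 0.82, adjusted p = 2.63e-06) in thymus vs spleen and -5.99 (SE 0.69, adjusted p = 2.57e-05) in mLN vs thymus. H2-T23, which encodes Qa-1, was at 62.7 to 128 TPM in thymus, 81.5 to 173 in spleen, 103 to 141 in mLN and 99.7 to 225 in iLN, with adjusted p = 0.768 over 4 tissues.

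Among other receptors known from NK cells, calls went in both directions. Of 24 genes, 21 were in the files and 19 were tested. In thymus vs spleen 2 were higher (Itga1 and Cd244a) and 2 lower (Cd226 and Cd160). In mLN vs spleen 4 were lower (Cd160, Slamf7, Il18rap and Il12rb2), and in iLN vs spleen 1 was higher (Il18r1) and 3 were lower (Cd226, Cd160 and Slamf7). In mLN vs thymus 2 were higher (Cd226 and Cd96) and 7 lower, and in iLN vs thymus 1 was higher (Cd96) and 4 were lower. Of all genes, 0.779% were higher and 0.537% lower in thymus vs spleen, 0.199% lower in mLN vs spleen, 0.963% higher and 0.588% lower in iLN vs spleen, 0.816% and 0.779% in mLN vs thymus, and 0.875% and 0.625% in iLN vs thymus. Their median log2 fold change was -0.01 in thymus vs spleen and -0.67 in mLN vs spleen, beside -0.01 and 0 for all genes. Itga1, the α1 integrin chain, was at 14.9 to 38.8 TPM in thymus and 3.55 to 9.04 in spleen (log2 fold change 1.92, SE 0.25, adjusted p = 0.000121). Cd244a, the SLAM family receptor 2B4, was at 2.82 to 6.13 TPM in thymus and held 1 count in spleen and 0 in iLN. Cd226, the activating receptor DNAM-1, was at 32.8 to 92.3 TPM in thymus and 95 to 176 in spleen (-1.42, SE 0.16, adjusted p = 2.4e-05). Cd160 was at 38.7 to 50.7 and 77.3 to 129 TPM (-1.15, SE 0.22, adjusted p = 0.00523), a call lost without thymus replicate 1, 2 or 4 or spleen replicate 2, 3 or 4 (adjusted p up to 0.0301). The calls of Slamf7 and Il12rb2 in mLN vs spleen were each lost without any 1 of 11 libraries (every thymus and spleen replicate and mLN replicates 2, 3 and 4; adjusted p up to 0.0348 and 0.044), that of Il18rap without spleen replicate 4 or mLN replicate 3 or 4 (up to 0.0119), that of Cd160 without spleen replicate 2, 3 or 4 or mLN replicate 3 or 4 (up to 0.0247), and that of Cd226 in iLN vs spleen without iLN replicate 2 (0.0118). In mLN vs thymus the call of Cd226 was lost without thymus replicate 1, 3 or 4 or mLN replicate 1 or 3 (up to 0.0191). That of Cd244a was lost there without any 1 of 11 libraries (every thymus and mLN replicate and spleen replicates 1, 3 and 4; up to 0.0707) and in iLN vs thymus without thymus replicate 4 or iLN replicate 2 or 4 (up to 0.02). That of Slamf7 was lost without any thymus replicate or mLN replicate 2, 3 or 4 (up to 0.0215) and, in iLN vs thymus, without any thymus replicate or iLN replicate 2 or 3 (up to 0.0321). The call of Il18r1 in mLN vs thymus was lost without thymus replicate 1, 3 or 4, spleen replicate 3 or 4, or mLN replicate 2, 3 or 4 (up to 0.0527).

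Il18r1, an IL-18 receptor chain, was at 116 to 234 TPM in iLN and 44.8 to 96.2 in mLN, with a log2 fold change of 1.65 (SE 0.18, adjusted p = 6.21e-05) in iLN vs mLN and 1.40 (SE 0.18, adjusted p = 0.000121) in iLN vs spleen. Il18rap, its partner chain, was lower in mLN than in thymus (-1.50, SE 0.18, adjusted p = 3.64e-05), and Il12rb2, an IL-12 receptor chain, likewise (-1.75, SE 0.20, adjusted p = 2.03e-05). Pvrig was lower in mLN than in thymus (-1.71, SE 0.33, adjusted p = 0.00457), a call lost without thymus replicate 1, 2 or 3 or mLN replicate 1, 2 or 3 (adjusted p up to 0.0229). Slamf7 was at 105 to 233 TPM in spleen and 32.2 to 74.6 in iLN (-1.68, SE 0.30, adjusted p = 0.00282), a call lost without spleen replicate 4 or iLN replicate 2 or 3 (adjusted p up to 0.0225).

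Of 19 transcription factors of NK and NKT1 cells, 17 were tested. In thymus vs spleen 1 was higher (Tox), in mLN vs spleen 2 were higher (Tox and Tcf7) and 1 lower (Zfp683), and in iLN vs spleen 2 were higher (Runx2 and Tcf7). In mLN vs thymus 1 was higher (Tcf7) and 2 lower (Runx2 and Zfp683), and in iLN vs thymus 2 were higher (Tcf7 and Ikzf2) and 1 lower (Zfp683). In iLN vs mLN 2 were higher (Runx2 and Ikzf3). Of all genes, 0.456% were called higher in mLN and 0.963% in iLN against spleen, and 0.816% and 0.875% against thymus. Called higher were also 0.779% in thymus vs spleen and 0.316% in iLN vs mLN. Called lower were 0.199% in mLN vs spleen, 0.779% in mLN vs thymus and 0.625% in iLN vs thymus. DESeq2 called 5 of the 17 in thymus vs spleen, 3 in mLN vs spleen and 7 in iLN vs spleen, beside 407, 266 and 588 of all genes. The median log2 fold change of the 17 was 0.02 in thymus vs spleen, beside -0.01 for all genes. Tbx21, the factor T-bet that NKT1 cells depend on, was at 16.9 to 47.7 TPM in thymus, 16.5 to 56.8 in spleen, 9.74 to 41.7 in mLN and 10.9 to 20.3 in iLN. The tissues overlapped, and no pair was called, with a log2 fold change of -0.04 (SE 0.29) in thymus vs spleen and -1.40 (SE 0.32, adjusted p = 0.0164) in iLN vs spleen. Eomes, which conventional NK cells express, had 40 expected counts over all 15 samples, 21 of them in iLN replicate 4. Tcf7, which encodes TCF1, was at 53.2 to 83.8 TPM in thymus, 64.1 to 86.7 in spleen, 177 to 263 in mLN and 182 to 366 in iLN, so that every lymph node sample was above every thymus and spleen sample (log2 fold change 1.47, SE 0.18, adjusted p = 0.000181 in mLN vs spleen and 1.62, SE 0.19, adjusted p = 3.68e-05 in iLN vs spleen).

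Tox was higher in thymus than in spleen (1.75, SE 0.26, adjusted p = 0.00039). Runx2 was at 13.2 to 27.2 TPM in iLN and 2.03 to 21.3 in mLN, where replicate 2 overlapped with iLN (log2 fold change 2.63, SE 0.38, adjusted p = 0.000743), and Ikzf3 was also higher in iLN than in mLN (0.96, SE 0.17, adjusted p = 0.00672), whose call was lost without thymus replicate 3 or 4, spleen replicate 2 or 4, mLN replicate 1, 3 or 4, or iLN replicate 4 (adjusted p up to 0.039). Zfp683, which encodes Hobit, was lower in mLN and iLN than in thymus (-1.44, SE 0.21, adjusted p = 0.000328 and -1.40, SE 0.23, adjusted p = 0.0014). Ikzf2 was higher in iLN than in thymus (1.04, SE 0.16, adjusted p = 0.000639). Among the calls against spleen, that of Zfp683 in mLN was lost without any 1 of 12 libraries (every thymus, spleen and mLN replicate; adjusted p up to 0.0515), that of Tox in mLN without spleen replicate 1, 2 or 4 or mLN replicate 1, 3 or 4 (up to 0.0271), and that of Runx2 in iLN without spleen replicate 4 or iLN replicate 4 (up to 0.0168). That of Runx2 in mLN vs thymus was lost without thymus replicate 1 or mLN replicate 3 or 4 (up to 0.0156). Il2rb, the IL-2 and IL-15 receptor chain of NKT1 cells, was at 479 to 815 TPM in thymus, 484 to 941 in spleen, 340 to 528 in mLN and 414 to 519 in iLN, and was called in none of the 6 pairs (lowest adjusted p of a pair 0.0558).

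Markers of iNKT subsets and of other cells were read beside these results. The 7 NKT1 markers summed to 1834, 2575, 1669 and 1963 TPM in thymus, 1700, 2206, 1897 and 2667 in spleen, 1075, 1326, 1151 and 1592 in mLN, and 983, 980.2 and 1018 in iLN, with Il2rb the most abundant over all samples and none at 0. Thymus and spleen overlapped, and every lymph node sample was below both. Of the 7, 1 was lower in thymus vs spleen (Ccl5), 1 in mLN vs spleen (Ccl5, lost without spleen replicate 2, 3 or 4 or mLN replicate 2, 3 or 4, adjusted p up to 0.0314) and 2 in iLN vs spleen (Ccl5 and Nkg7), where all 7 had an unadjusted p under 0.05 and DESeq2 called 5. In iLN vs spleen 2225 of all genes had an unadjusted p under 0.05, and DESeq2 called 588. Against thymus, Ccl5 was higher and Nkg7 lower in mLN, and Xcl1 and Nkg7 were lower in iLN. Of these, the call of Ccl5 was lost without thymus replicate 2, 3 or 4, spleen replicate 4 or mLN replicate 1, 2 or 4 (up to 0.0322) and that of Xcl1 without thymus replicate 1 or 3 or iLN replicate 2 or 3 (up to 0.0177). The 9 NKT17 markers summed to 11.3 to 32.6 TPM in thymus, 17.9 to 33.96 in spleen, 36.04 to 87.0 in mLN and 218 to 618 in iLN, with Tmem176a the most abundant over all samples and Il17a at 5 counts in all, and 7 of 8 tested were higher in iLN than in spleen. The 8 NKT2 markers summed to 230 to 456 TPM in thymus, 207 to 428 in spleen, 444 to 523 in mLN and 482 to 848 in iLN, with Icos the most abundant. Of all genes, 0.537% were called lower in thymus, 0.199% in mLN and 0.588% in iLN against spleen, and 0.963% higher in iLN. The part of these subsets in the receptor levels was not tested.

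Of 11 markers of conventional NK cells, 8 were tested. They summed to 403, 452, 311 and 362 TPM in thymus, 56.3, 84.2, 36.4 and 43.2 in spleen, 10.4, 9.06, 20.5 and 16.8 in mLN, and 16.6, 11.2 and 24.6 in iLN. The most abundant over all samples was Klra9, which is also among the complex receptors described before and made up most of the sum in each thymus sample. In thymus vs spleen 1 of the 8 was higher (Klra9) and 0 were lower, where 4 had an unadjusted p under 0.05 and DESeq2 called 3. In mLN vs thymus and in iLN vs thymus 2 were lower (Klra9 and Gzma, that of Klra9 in iLN lost without iLN replicate 2, adjusted p = 0.0113), with medians of -3.29 and -3.13 when genes at 0 in a tissue are set to their bound, beside 0.03 for all genes. In iLN vs spleen 1 was lower (Gzma, lost without iLN replicate 3 or 4, up to 0.0147). In mLN vs spleen edgeR called 0, with an unadjusted p under 0.05 for 5 genes, and DESeq2 called 1. With the same bound, the medians were 0.56 in thymus vs spleen, -2.06 in mLN vs spleen and -1.21 in iLN vs spleen. Those of all genes were -0.01, 0 and 0.01. Cma1 was at 0 in all samples, Klra4 had 6 expected counts in all, and Eomes was at 0 in all spleen samples and at most 0.70 TPM in thymus. Khdc1a was at 0 in all 4 thymus samples, 3.56 to 13.4 TPM in spleen, 0.33 to 2.19 in mLN and 0 to 10.6 in iLN, and was called in no pair by edgeR (adjusted p = 0.0343 in thymus vs spleen). Gzma, the granzyme A gene, was at 85.2 to 163 TPM in thymus, 14.1 to 26.3 in spleen, 0 to 5.32 in mLN and 0 to 1.09 in iLN, so that thymus, spleen and lymph node samples did not overlap. The part of such cells in the receptor levels was not tested.

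The sort left out myeloid cells, and their markers and those of other cells were also read. The 9 myeloid markers summed to 31.1 to 67.0 TPM in thymus, 127, 62.7, 47.3 and 52.8 in spleen, 26.6 to 88.1 in mLN and 46.1 to 107 in iLN, with Cst3 the most abundant. Of the 4 tested, edgeR called Lyz2 lower in thymus than in spleen (0 to 1.1 and 2.96 to 63.5 TPM), a call lost without any 1 of 12 libraries (all but spleen replicate 4, mLN replicate 1 and iLN replicate 2; adjusted p up to 0.0575). Cd74 and H2-Aa, MHC class II genes of antigen-presenting cells, were at 218.5 and 209.5 TPM in spleen replicate 1, at most 11.9 and 17.1 in the other spleen samples, at most 6.03 and 2.54 in thymus and up to 117 and 85.5 in the lymph nodes. Spleen replicate 1 was also the highest spleen sample for Klrd1, Klrk1, Klrc1, Klrc2, Klrg1 and, on 10 expected counts (1.23 TPM), Ncr1. Without it, 4 of the 28 calls were lost (Klrc1 and Klrc2 in mLN vs spleen, Klrc2 in iLN vs spleen and Klre1 in thymus vs spleen). The 5 red cell markers in the files summed to 3.72 to 66.0 TPM in thymus, 67.96 to 340.5 in spleen and 1.24 to 16.8 in the lymph nodes, with Hbb-bs the most abundant over all samples. Of these 5, edgeR called 3 lower in mLN vs spleen, 1 in iLN vs spleen and 1 in mLN vs thymus, where DESeq2 called 4, 3 and 2. In thymus vs spleen both called 0. Over all genes, edgeR called 0.199% lower in mLN vs spleen, 0.588% in iLN vs spleen and 0.779% in mLN vs thymus. DESeq2 called 266, 588 and 427 genes in these pairs. The 6 γδ T cell markers summed to 589 to 1539 TPM in thymus, 381 to 983 in spleen, 658 to 1296 in mLN and 760 to 1844 in iLN, with Tcrg-C2 the most abundant and Trdv4 at 0. Trdc, the constant gene of the δ chain, did not pass the filter, with summed expected counts of 5.99 in thymus, 7.93 in spleen, 83.0 in mLN (60.02 of them in 1 sample) and 1 in iLN. Of the 4 tested, edgeR called 3 and DESeq2 4 higher in iLN vs spleen, where edgeR called 0.963% of all genes higher. The 3 called by edgeR were Sox13 (lost without spleen replicate 1 or 4 or iLN replicate 2, up to 0.0188), Tcrg-C1 (spleen replicate 2, 3 or 4 or iLN replicate 4, up to 0.0246) and Tcrg-C2 (any spleen replicate, thymus replicate 2 or 3, mLN replicate 4 or iLN replicate 4, up to 0.0422). The 6 immature thymocyte markers summed to 9.69 to 36.9 TPM in thymus, 8.11 to 40.3 in spleen, 4.41 to 15.1 in mLN and 6.37 to 9.64 in iLN, with Cd1d1 the most abundant over all samples. Rag1, 1 of the 3 tested, was at 0.85 to 5.50 TPM in thymus, at most 0.03 in spleen and 0 in every lymph node sample, and edgeR called it higher in thymus than in spleen (lost without thymus replicate 1, adjusted p = 0.0103) and lower in mLN and iLN than in thymus (in iLN lost without any thymus replicate or iLN replicate 2 or 4, up to 0.0239). Dntt and Arpp21 were detected in all 4 thymus samples and in none of the lymph node samples, while Ptcra was detected in every sample, with mean levels of 1.13 TPM in thymus, 1.76 in spleen, 1.21 in mLN and 1.33 in iLN. The median log2 fold change of the 3 tested genes was -0.47 in thymus vs spleen, beside -0.01 for all genes. Their part in the results was not tested.

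Across the 15 samples, which fall into 4 tissues and differ in depth, Pearson's r of log2 CPM was taken as a description. It was 0.91 between Klrb1c and Klrd1 (0.95 in the 8 samples of batch First, 0.89 in the 7 of batch Second), 0.92 between Klrd1 and Klrc2 (0.92 and 0.91), 0.91 between Klre1 and Styk1 (0.94 and 0.89) and 0.90 between Styk1 and Klra1 (0.96 and 0.90). Among the pairs without Klrg1 it was lowest between Klrc1 and Klra1 (0.55; 0.67 and 0.42), Klrc2 and Klra1 (0.58; 0.77 and 0.57) and Klrk1 and Klre1 (0.63; 0.85 and 0.45). With Klrg1 it was between -0.47 (Klra1; -0.61 and -0.43) and 0.03 (Klrc1; -0.04 and 0.13). The 5 other genes most like Klrb1c were Gas7 (0.94; 0.97 and 0.97 within the batches), Dennd4a (0.93; 0.97 and 0.93), Gzma (0.93; 0.92 and 0.95), Hip1 (0.92; 0.92 and 0.90) and Il12rb2 (0.90; 0.93 and 0.89). Those most like Klra1 were Tjp1 (0.92; 0.94 and 0.94), Fcer1g (0.89; 0.95 and 0.89), Sgk1 (0.88; 0.97 and 0.83), Cdh1 (0.88; 0.83 and 0.93) and Ctla2a (0.87; 0.90 and 0.88). Those most like Klrg1 were Trip4 (0.87; 0.78 and 0.98), Ccl5 (0.86; 0.92 and 0.86), Lypd6b (0.86; 0.89 and 0.84), Klf3 (0.85; 0.89 and 0.86) and Ankmy1 (0.84; 0.78 and 0.89). Ccl5, a chemokine gene, was at 66.5 to 92.3 TPM in thymus and 350 to 679 in spleen, so that, as for Klrg1, every spleen sample was above every thymus sample.

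Promoters of 7 of the 10 genes were in the RefSeq table for GRCm38.p6, which gives 250 bases before and 50 after each start site (Klrb1c, Klrk1, Klrc1, Klrc2, Klre1, Ncr1 and Klra1). Those of Klrk1, Klre1 and Klra1 are shown, as the genes called higher in thymus than in spleen that have an entry. Capitals mark the core letters of a Runx motif, TGTGGT or, on the other strand, ACCACA.
Klrk1 promoter, chr6:129623815-129624114, minus strand: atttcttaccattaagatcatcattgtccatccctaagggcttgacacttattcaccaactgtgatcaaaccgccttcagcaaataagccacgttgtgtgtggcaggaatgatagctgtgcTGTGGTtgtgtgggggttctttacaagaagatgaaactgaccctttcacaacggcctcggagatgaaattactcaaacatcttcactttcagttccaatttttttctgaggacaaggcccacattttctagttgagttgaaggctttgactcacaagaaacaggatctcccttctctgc
Klre1 promoter, chr6:129577963-129578262, plus strand: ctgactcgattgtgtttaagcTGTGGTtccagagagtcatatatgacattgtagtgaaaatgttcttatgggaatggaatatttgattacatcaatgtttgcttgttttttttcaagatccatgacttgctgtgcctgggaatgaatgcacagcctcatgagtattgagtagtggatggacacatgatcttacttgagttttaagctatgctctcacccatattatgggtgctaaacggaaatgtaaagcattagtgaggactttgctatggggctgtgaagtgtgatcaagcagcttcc
Klra1 promoter, chr6:130386825-130387124, minus strand: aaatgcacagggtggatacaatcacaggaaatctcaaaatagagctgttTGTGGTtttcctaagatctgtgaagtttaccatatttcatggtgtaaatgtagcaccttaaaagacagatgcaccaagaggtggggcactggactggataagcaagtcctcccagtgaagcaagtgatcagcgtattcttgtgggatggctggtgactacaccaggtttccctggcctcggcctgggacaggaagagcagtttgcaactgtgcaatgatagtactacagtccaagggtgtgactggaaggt
The Runx core was found on either strand in all 7 promoters, in 18.9% of 27025 genes and in 16.8% of 32851 promoters of this length. The longer TGTGGTT (or AACCACA), which contains the core, was found in 4 of 7 (Klrk1, Klre1, Ncr1 and Klra1) and in 6.09% of genes. Of the other 4 motifs searched on both strands, the T-box letters AGGTGT were in 0 of 7 (15.7% of genes) and AGGTGTGA, which contains them, in 0 of 7 (1.48%). The AP-1 letters TGAGTCA were in 2 of 7 (Klrk1 and Klrc2; 5.95%) and the ETS letters GGAAGT in 1 of 7 (Klrb1c; 26.6%). Klrc2 and Ncr1, with 2 start sites each, hold the core in both windows, and Klre1, also with 2, in the first. A match is a description and not a binding site, and the 7 promoters include that of Ncr1, which had at most 10 expected counts in a sample.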

How the data were processed

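The authors sorted the cells, prepared libraries with the NuGEN Ovation Ultralow kit, which does not mark the strand, and sequenced them. The labels place the samples in 2 batches. All sample titles of a batch carry the same leading code and lane label, which differ between the batches. What else a batch shared is not said in the labels. Per the submitters' processing notes and the study's methods, reads were trimmed with cutadapt 1.7.1 and quantified with RSEM 1.2.31 and Bowtie2 2.2.9 on GRCm38. The deposited expected counts are RSEM's estimated fragments per gene, in which fragments that align to several genes are shared out. The deposited TPM values are these counts divided by effective length and scaled by the authors to the same sum in each sample. The deposited FPKM values were not used. Genes for ribosomal RNA or overlapping it (mt-Rnr1, mt-Rnr2, CT010467.1, Gm42418 and AY036118) held 18.7% to 37.8% of TPM.

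Expected counts were rounded, filtered with filterByExpr by tissue, normalized with TMM and fitted with edgeR 4.0.16 (limma 3.58.1, R 4.3.3) by quasi-likelihood with robust estimation, with tissue and batch as factors, batch First holding 8 samples and batch Second 7. P-values were adjusted by Benjamini-Hochberg over all 13600 genes, and a gene was called at an adjusted p under 0.01 and a fold change over 1.5 (over 4 tissues, at the adjusted p alone). SE was taken from the fit. The fit was tested on simulated data. A first run missed its tolerance, and the test, but not the fit, was then changed to pool several draws with another tolerance. Levels, sequences and correlations were computed in Python 3.11.15 with pandas 2.3.3. Most abundant markers were taken over all samples. Between replicates of a tissue, chi-squared per degree of freedom was at least 7.21, so that no sample was counted as a copy. Within-batch fits held 2 samples per tissue, and 1 of iLN in batch Second.

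The calls were recomputed with DESeq2 1.42.0, with RLE scaling, without a filter, without the batch term, with replicate numbers blocked and batch dropped, in each batch by itself, and without each of 15 libraries in turn. The members and lists were chosen with earlier results of these data known. Named beside the 10 genes were those of each pathway list called in at least 1 pair (at most 8 per list by the largest log2 fold change, with a mean CPM of at least 5), the same for the chromosome 6 span, Tyrobp, Hcst, H2-T23, Cdh1, Tbx21, Eomes and Il2rb, and 5 genes by correlation for each of Klrb1c, Klra1 and Klrg1. Klra6, Klra13-ps, Cd244a, Cd96, Gzma, Ccl5, Nkg7, Xcl1, Thy1, Rag1, Dntt, Arpp21, Ptcra, Trdc, Khdc1a, Lyz2, Sox13, Tcrg-C1, Tcrg-C2, Cd74, H2-Aa, Trav11 and Zbtb16 were chosen from the lists after their values were seen. The B cell marker list is not reported here.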

Additional observations from a re-analysis of the deposited data

Results flagged for a closer look

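Klre1 in thymus replicate 1 was at 80.9 TPM, where the other 3 thymus samples were at 39.4 to 45.4 TPM, and its gap to the nearest of them was 0.856 of the range, past the 95% critical value of Dixon's test for 4 samples. Of 29 groups of 4 samples tested this was 1, and chance gives about 1 in 20. Without this sample the log2 fold change of Klre1 in thymus vs spleen was 2.48, beside 2.86 with it, and its adjusted p was 0.0561.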

How the results depend on the processing

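The 28 differences of the receptor genes called in the 6 pairs had the same direction under each of 22 alternatives, and the 6 of Klrc1 and Klrc2 also with their counts summed. DESeq2 added 7 calls and the test without a filter 6, and 6 were lost without the batch term, 14 in batch First, where 1 was added (Klrc1 in iLN vs thymus), and 23 in batch Second, while 2 were added without mLN replicate 1. The number of receptor genes called in thymus vs spleen was 1 in each batch alone, and 3 to 5 without 1 library. In mLN vs spleen it was 2 without the batch term, 0 in each batch (edgeR, with an unadjusted p under 0.05 for 7 in First and 5 in Second), and 1 to 4 without 1 library. In iLN vs spleen it was 6 by DESeq2 and without a filter, 1 without the batch term, 0 in each batch (7 and 6 with an unadjusted p under 0.05), and 0 to 4 without 1 library. In batch Second it was 3 in mLN vs thymus, 1 in iLN vs thymus and 4 over 4 tissues, and in iLN vs mLN it was 0 in each batch (3 and 3 with an unadjusted p under 0.05). A batch alone holds fewer samples, with 1 of iLN in batch Second, and DESeq2 was not run within a batch. In batch First an unadjusted p under 0.05 was found for 2409 of all genes in iLN vs spleen and 2078 in iLN vs mLN.

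Over all genes, 179, 89, 211, 217, 204 and 64 were called in thymus vs spleen, mLN vs spleen, iLN vs spleen, mLN vs thymus, iLN vs thymus and iLN vs mLN, and 459 over 4 tissues. DESeq2 called 407, 266, 588, 427, 499, 307 and 1077, no filter gave 393, 273, 544, 435, 480, 279 and 1134, and no batch term 123, 29, 129, 156, 123, 40 and 310. Batch First gave 45, 0, 81, 55, 114, 23 and 180, and batch Second 27, 0, 4, 31, 7, 3 and 41, where the counts of 0 in mLN vs spleen stand beside 1145 and 1437 genes with an unadjusted p under 0.05. Without 1 library the counts ranged from 114 to 222, 24 to 99, 108 to 267, 125 to 235, 104 to 236, 44 to 66 and 327 to 493.

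Differences that were not called changed sign as follows, and the cause was not tested. In batch Second the log2 fold change was 0.06 for Klrb1c, -0.53 for Klrc2 and -0.42 for Klra1 in iLN vs mLN, 0.14 for Klrk1 in iLN vs spleen, and 0.24 for Klre1 and 0.06 for Styk1 in mLN vs spleen. In batch First it was 1.21 for Klrg1 in iLN vs thymus and -0.52 for Klra1 in mLN vs spleen. Without the batch term it was -0.17 for Klrc2 in iLN vs mLN and 0.06 for Klrg1 in iLN vs thymus. Without 1 library it ranged from -0.24 to 0.04 for Klrb1c, from -0.28 to 0.61 for Klrc2 and from -0.35 to 0.76 for Klra1 in iLN vs mLN, from -0.67 to 0.90 for Klrg1 in iLN vs thymus, and for Klra1 from -0.59 to 0.49 in mLN vs spleen and from -0.22 to 0.62 in iLN vs spleen.

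The replicate numbers were not taken to pair the samples. The labels do not say whether a number marks 1 mouse, and the correlations do not decide it. Same-numbered deviations had a mean correlation of 0.122 (0.00151 to 0.25), beside 0.107 for other numbers of the same batch. The paper used a paired t-test for clonotype frequencies from its RNAseq samples. With the replicate block in place of batch, 1 of the 28 calls was lost, Klre1 in thymus vs spleen (2.83, adjusted p = 0.0118, beside 0.00899), and values that were not called changed sign for Klrg1 in iLN vs thymus (0.20) and Klra1 in mLN vs spleen (-0.02). Of 88 called differences of other named genes, 7 were lost with the block and 22 without the batch term. Depth limits Klrg1, Ncr1 and the iLN levels of Klre1 and Styk1, which rest on few counts.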
